A study of Mus musculus with 8 samples.

Results

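The collagen genes were followed in RNA of cells sorted from tumor-bearing mouse lungs by the signal of a protease-activated probe. Members were all genes of the count table whose mouse symbol reads Col, a number, a and a number, and 44 of 27179 genes met this pattern. They were grouped into 11 fibrillar, 8 basement membrane, 9 FACIT (fibril-associated collagens with interrupted helices), 4 transmembrane and 12 other collagens. The study injected QZ1-(PEG2K), a peptide probe whose Cy5 fluorescence appears after protease cleavage, and sorted live lung cells into a QZ1-hi and a QZ1-lo population to ask which cells carry the activity. Bulk RNA-seq gave 4 QZ1-hi and 4 QZ1-lo libraries. Every library came from C57BL/6 mice (C57BL/6J in the methods), age-matched to healthy controls given as 18 to 22 weeks old. The mice of the libraries carried lung tumors with the Eml4-Alk rearrangement. Tumors had been induced 11 to 12 weeks earlier by an intrapulmonary adenovirus with Cas9 and guide RNAs. Every mouse had received 4.5 nmol of probe intravenously, and the lungs were taken 2 h later. Both populations therefore share mouse strain, tumor model and probe, and no library of healthy lung or of mice without probe was analysed here. The sort kept DAPI-, CD45- and CD11b- cells, gated QZ1 signal against EpCAM, and collected at least 100000 cells per population. The purity of the sorted populations was not measured directly, and nothing in the labels or methods pairs the libraries by mouse. Nothing states that the libraries of a population came from separate mice either, so the p values below measure the spread between these libraries.

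Collagens are secreted or membrane-bound proteins whose chains wind around each other into a helix, often with chains of several genes in the same molecule. Fibrillar collagens form the load-bearing fibrils of connective tissue and are made mainly by fibroblasts. Type IV collagen forms the sheet of basement membranes under epithelium and around vessels, where different chain combinations replace each other between tissues and ages. FACIT collagens sit on fibril surfaces, transmembrane collagens span the plasma membrane, and the remaining members include microfilament, anchoring and network-forming collagens.

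Total counts per library ranged from 18380918 to 26847938, of which 8749446 to 16389316 lay outside mitochondrial and ribosomal RNA genes. Mitochondrial ribosomal RNA took up 39.5 to 58.4% of the counts in QZ1-hi and 30.2 to 47.3% in QZ1-lo. Values below are CPM, counts scaled to a common library size, after adjustment by edgeR's TMM factors, on which 3 counts correspond to 0.0894 to 0.179 CPM by library, covering counting error only. Genes were called at an adjusted p under 0.05 in the quasi-likelihood test of edgeR, adjusted over 15583 genes by Benjamini-Hochberg, and a positive log2 fold change means a higher level in QZ1-hi. Although CD45+ cells were gated out, Ptprc, which encodes CD45, read 71.4 to 222 CPM in QZ1-hi and 93.4 to 161 CPM in QZ1-lo (edgeR, adjusted p = 0.929).

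The collagen genes that rose in QZ1-hi included 6 fibrillar chains and Col14a1, a collagen of fibril surfaces, while Col4a3, Col4a4 and Col8a2 fell. Of the 44 genes, 34 passed the filter on low counts and 10 did not. Among the 34, 17 rose and 3 fell in QZ1-hi, where 9.88% of all genes tested were called higher and 8.21% lower. The median log2 fold change of these 34 was 1.53, against 0.02 for all genes tested. All QZ1-hi values exceeded all QZ1-lo values for 13 of the 34, a pattern met by 11.9% of all genes tested, and below for 4 of them, a pattern met by 10.7%. The remaining 17 overlapped. Removing mitochondrial and ribosomal RNA genes before scaling left the same 17 and 3 calls. Scaling by library size only moved the median of all genes from 0.02 to -0.44 and the share of calls that were higher from 54.6% to 26.0%, and it left 15 of the 17 higher calls and all 3 lower calls.

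Collagen genes made up 0.936, 0.901, 1.10 and 0.596% of the counts outside mitochondrial and ribosomal RNA genes in QZ1-hi replicates 1 to 4. The corresponding shares in QZ1-lo replicates 1 to 4 were 0.357, 0.306, 0.344 and 0.265%. The populations did not overlap, and replicate 4 was the lowest of each. Summed collagen CPM were 4805, 4443, 5624 and 3109 in QZ1-hi and 1742, 1476, 1700 and 1291 in QZ1-lo. The make-up of this sum also differed between the populations. Fibrillar collagens were 33.6 to 54.3% of collagen CPM in QZ1-hi (median 46.4%) and 3.51 to 19.9% in QZ1-lo (median 13.6%). Basement membrane collagens were 32.6 to 56.1% in QZ1-hi (median 40.2%) and 66.7 to 82.0% in QZ1-lo (median 74.3%). Their lower share in QZ1-hi was not a lower sum, which was 1303 to 2697 CPM in QZ1-hi and 1007 to 1399 CPM in QZ1-lo. FACIT collagens held 2.84 to 5.33% in QZ1-hi and 3.46 to 4.34% in QZ1-lo, and the other collagens 7.19 to 8.62% and 7.80 to 9.55%, so that these shares overlapped. In QZ1-hi, Col1a1, Col1a2 and Col3a1 together gave 28.7 to 49.1% of collagen CPM, and in QZ1-lo 1.99 to 17.1%. In QZ1-lo, Col4a1 and Col4a2 together gave 50.9 to 63.2%, and in QZ1-hi 25.3 to 47.4%. Their summed CPM were 754 to 1066 in QZ1-lo and 1065 to 2277 in QZ1-hi.

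**Figure D1:**
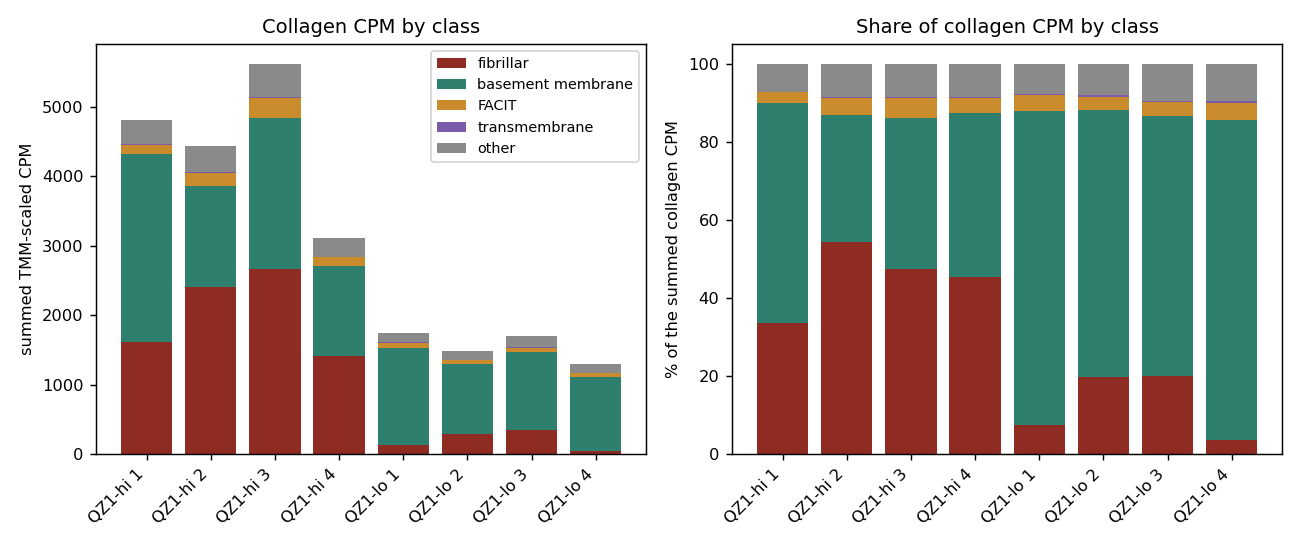
Summed TMM-scaled CPM of the collagen genes by class in each of the 8 libraries (left) and the share of each class in that sum in % (right). The QZ1-hi bars reach 3109 to 5624 CPM and the QZ1-lo bars 1291 to 1742 CPM, and the fibrillar share is 33.6 to 54.3% in QZ1-hi and 3.51 to 19.9% in QZ1-lo.

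Marker genes of several cell types differed between the populations in the same libraries. For comparison, 9.88% of all genes tested were called higher and 8.21% lower. Fibroblast markers summed to 468 to 1239 CPM in QZ1-hi and 64.0 to 159 CPM in QZ1-lo, with 8 of 10 called higher. Endothelial markers summed to 887 to 2117 CPM and 64.3 to 270.2 CPM, with 8 of 8 called higher, and pericyte markers to 59.8 to 88.0 CPM and 8.92 to 28.2 CPM, with 4 of 8 called higher. Smooth muscle markers summed to 48.2 to 94.4 CPM and 12.4 to 26.3 CPM, with 3 of 6 higher and 1 lower. These 4 sums did not overlap, and QZ1-lo replicate 4 was the lowest QZ1-lo library in each, as it was for the fibrillar sum. Within QZ1-hi, replicate 4 was lowest for the fibrillar, endothelial, pericyte and smooth muscle sums, but replicate 1 was lowest for the fibroblast sum. Of 5 mesothelial markers 4 were higher (Msln, Upk3b, Wt1 and Lrrn4) and 1 lower (Krt19), with sums of 136 to 453 CPM and 256 to 353 CPM. Krt19 alone had a mean of 124 CPM in QZ1-hi and 297 CPM in QZ1-lo. The highest mesothelial sum, 453 CPM, was that of QZ1-hi replicate 2, where Krt19 read 185 CPM and Upk3b 126 CPM. The sums of QZ1-hi replicates 1, 3 and 4 were 173, 136 and 162 CPM, below the QZ1-lo range. Of 6 alveolar type 2 markers 2 were higher, with sums of 6181 to 11380 CPM and 4536 to 7152 CPM. The epithelial lists that were lower in QZ1-hi were alveolar type 1 (572 to 854 CPM against 968 to 1162 CPM, with 4 of 6 lower and 1 higher), club and airway (385 to 1084 CPM against 1600 to 4198 CPM, 4 of 5 lower) and ciliated cells (67.0 to 191 CPM against 306 to 578 CPM, 5 of 5 lower). Basal, chondrocyte, Schwann, leukocyte and erythroid sums overlapped, and the chondrocyte markers Acan, Matn1 and Matn3 and the Schwann marker Cdh19 had 3 counts or fewer in every library. In such bulk libraries, fewer cells of a type and less RNA per cell cannot be told apart, and the part of these marker differences in the collagen results was not tested.

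Fibrillar collagens rose the most as a class. Of 9 genes tested, 6 rose and 0 fell in edgeR, against 9.88% and 8.21% of all genes tested. The median log2 fold change was 3.16, and lower calls also numbered 0 at an unadjusted p under 0.05, in DESeq2 and in limma. These 6 encode chains of types I, III and V, which assemble together in fibrils. Their calls held in all 16 alternative fits at the same threshold, an adjusted p of 0.05, and each of their adjusted p values was also under 0.01. The summed fibroblast, endothelial, pericyte and smooth muscle markers were higher in the same QZ1-hi libraries. Of the single markers, 4 of 8 pericyte, 3 of 6 smooth muscle, 4 of 5 mesothelial and 2 of 6 alveolar type 2 markers were called higher. Among the smooth muscle markers 1 was lower, and among the mesothelial markers 1. The part of these markers was not tested. Col3a1 (Entrez Gene 12825, chr1:45311538-45349706 in GRCm38, plus strand, GENCODE M21 as for the positions below), the chain of type III collagen, had the highest mean of the collagens of QZ1-hi in CPM per kilobase of coding transcript (CPM per kb), at 160.3 against 13.9 in QZ1-lo. Col4a1 followed at a mean of 153 in QZ1-hi, where the ranges of both genes overlapped. Col3a1 read 640.3, 1081, 1192 and 654 CPM in QZ1-hi replicates 1 to 4 and 40.9, 121, 136 and 12.2 CPM in QZ1-lo replicates 1 to 4. The lowest QZ1-hi library lay above the highest QZ1-lo library, and its log2 fold change was 3.52 (edgeR, adjusted p = 0.00243, SE 0.62).

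The upstream sequences of Col3a1 and Col5a1 are shown because they are fibrillar genes that rose together while their start regions read differently. The stretches run up to the RefSeq start in GRCm38.p6, and capitals mark a TATA box (TATAAA or TTTATA), a GC box (GGGCGG or CCGCCC) or a CCAAT box (CCAAT or ATTGG), searched on both strands. The Col3a1 stretch is chr1:45311288-45311537 and the Col5a1 stretch chr2:27886175-27886424, both on the plus strand.
Col3a1: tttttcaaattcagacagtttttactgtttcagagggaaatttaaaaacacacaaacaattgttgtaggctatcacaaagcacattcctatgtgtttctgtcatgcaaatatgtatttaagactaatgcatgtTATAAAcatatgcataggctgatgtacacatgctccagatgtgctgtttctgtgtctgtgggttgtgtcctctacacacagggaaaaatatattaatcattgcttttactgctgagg
Col5a1: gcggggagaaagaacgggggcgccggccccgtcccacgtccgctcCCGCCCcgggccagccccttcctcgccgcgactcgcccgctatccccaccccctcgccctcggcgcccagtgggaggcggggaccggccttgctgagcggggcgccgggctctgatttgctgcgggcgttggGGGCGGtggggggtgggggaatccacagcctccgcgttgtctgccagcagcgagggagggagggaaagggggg
The Col3a1 stretch held a TATA box that begins 117 bases before the start and no GC box, while the Col5a1 stretch held GC boxes at 205 and 73 bases and no TATA box. Of 32851 RefSeq windows of 250 bases before a start, 12.4% held these TATA letters, 32.7% a GC box and 33.8% a CCAAT box. For the collagens, 35 genes had such a window, and 5 of them held a TATA box, 21 a GC box and 13 a CCAAT box. Among the 14 genes with a window that rose, the numbers were 1, 9 and 6. A match of letters is a description of the sequence and not a measured site.

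Col1a1 (Entrez Gene 12842, chr11:94936224-94953042) and Col1a2 (Entrez Gene 12843, chr6:4504814-4541544) encode the chains of type I collagen, the main fibril of most connective tissue. Col1a1 read 459, 668, 707 and 365 CPM in QZ1-hi and 38.9, 88.4, 91.6 and 10.7 CPM in QZ1-lo. Col1a2 read 281, 432, 465 and 223 CPM in QZ1-hi and 19.1, 42.4, 55.7 and 2.82 CPM in QZ1-lo. For both genes the populations were apart, with replicate 4 lowest in each. The log2 fold change was 3.26 (edgeR, adjusted p = 0.00185, SE 0.54) for Col1a1 and 3.54 (edgeR, adjusted p = 0.00367, SE 0.67) for Col1a2.

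Type V collagen sits inside type I fibrils and limits their width. Col5a1 read 101, 107, 152 and 70.4 CPM in QZ1-hi and 9.72, 13.3, 21.2 and 3.97 CPM in QZ1-lo. Col5a2 read 104, 99.5, 119 and 74.0 CPM in QZ1-hi and 9.30, 11.9, 18.2 and 3.36 CPM in QZ1-lo. Col5a3 read 17.8, 15.7, 24.3 and 12.4 CPM in QZ1-hi and 4.00, 5.04, 4.13 and 1.84 CPM in QZ1-lo. None of the 3 genes overlapped between the populations, and QZ1-lo replicate 4 was the lowest library for each. Their log2 fold changes were 3.16 (adjusted p = 0.000618, SE 0.42), 3.21 (adjusted p = 0.000452, SE 0.40) and 2.22 (adjusted p = 0.000799, SE 0.31) in edgeR.

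The fibrillar genes that were not called all read below 8 CPM. Col24a1 ranged from 0.231 to 4.19 CPM in QZ1-hi and from 0.368 to 1.16 CPM in QZ1-lo, with a log2 fold change of 1.69 (edgeR, adjusted p = 0.170, SE 0.76). Col11a2 (2.03 to 3.56 CPM and 3.30 to 3.82 CPM) and Col27a1 (3.58 to 7.63 CPM and 3.49 to 7.49 CPM) overlapped between the populations. Their log2 fold changes were -0.43 (adjusted p = 0.422, SE 0.32) and -0.24 (adjusted p = 0.704, SE 0.33) in edgeR, which does not show that their levels were equal. Col2a1, the main cartilage collagen, and Col11a1 had 38 and 16 counts over the 8 libraries and were not tested.

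**Figure D2:**
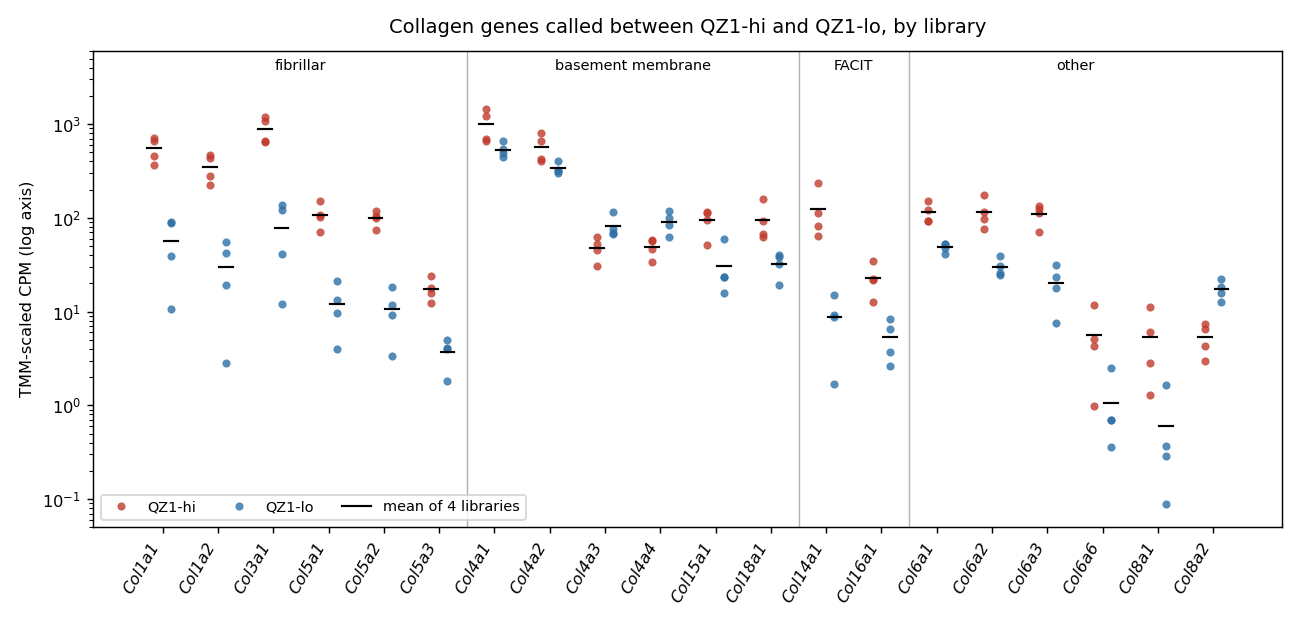
TMM-scaled CPM (log axis) of the 20 called collagen genes in each library, with red points for QZ1-hi, blue points for QZ1-lo and a bar at the mean of 4 libraries. Col3a1 lies at 640.3 to 1192 CPM in QZ1-hi and 12.2 to 136 CPM in QZ1-lo, while Col8a2 lies at 3.01 to 7.41 CPM and 12.7 to 22.5 CPM.

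Basement membrane collagens moved in both directions. Of the 8 genes, all of which were tested, 4 rose and 2 fell, against 9.88% and 8.21% of all genes tested. The median log2 fold change of the 8 was 0.46. The multiplexins Col15a1 and Col18a1, which link basement membrane to the tissue next to it, and the ubiquitous type IV chains Col4a1 and Col4a2 rose, whereas Col4a3 and Col4a4 fell. Col4a3 and Col4a4 encode chains that combine with that of Col4a5 in the basement membrane of kidney glomeruli and lung alveoli. The summed fibroblast, endothelial and pericyte markers were higher and the summed alveolar type 1 markers lower in the same QZ1-hi libraries, as given above. Alveolar type 2 sums overlapped, with 2 of 6 markers called higher. The part of these markers was not tested.

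Col4a1 (Entrez Gene 12826, chr8:11198423-11312826, minus strand) and Col4a2 (Entrez Gene 12827, chr8:11312805-11449287, plus strand) run in opposite directions from starts that overlap by 22 bases. Col4a1 read 1466, 697, 1233 and 662 CPM in QZ1-hi and 658, 449, 546 and 493 CPM in QZ1-lo. Col4a2 read 811, 426, 657 and 404 CPM in QZ1-hi and 408, 305, 319 and 323 CPM in QZ1-lo. QZ1-hi replicates 1 and 3 were high for both genes, and QZ1-hi replicate 4 lay just above the highest QZ1-lo library for Col4a1 and just below it for Col4a2. The log2 fold change was 0.92 (edgeR, adjusted p = 0.0262, SE 0.25) for Col4a1 and 0.76 (edgeR, adjusted p = 0.0320, SE 0.22) for Col4a2. Both calls were lost without QZ1-hi replicate 1 or 3 and without QZ1-lo replicate 2, 3 or 4, where the log2 fold change was 0.69 to 0.93 (adjusted p 0.0555 to 0.0849) for Col4a1 and 0.55 to 0.74 (adjusted p 0.0736 to 0.0997) for Col4a2. The number of basement membrane genes called higher was then 2 in each case, and 2 as well under scaling by library size only, where the log2 fold changes were 0.53 (adjusted p = 0.255) and 0.36 (adjusted p = 0.411).

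Col4a3 (Entrez Gene 12828, chr1:82586921-82722059, plus strand) and Col4a4 (Entrez Gene 12829, chr1:82448423-82586849, minus strand) also start next to each other. The 71 bases between their starts, chr1:82586850-82586920 in GRCm38.p6, are shown on the minus strand because both genes fell and share this stretch.
Col4a4 to Col4a3: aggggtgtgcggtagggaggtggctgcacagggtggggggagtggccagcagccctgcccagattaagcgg
It held none of the TATA, GC or CCAAT letters, which says only that these letters are not in this stretch. Col4a3 read 63.3, 53.2, 30.9 and 45.8 CPM in QZ1-hi and 114, 69.3, 66.6 and 76.3 CPM in QZ1-lo. Col4a4 read 56.2, 47.1, 34.0 and 57.6 CPM in QZ1-hi and 118, 83.3, 63.1 and 100.3 CPM in QZ1-lo. Every QZ1-hi library was below every QZ1-lo library for both genes, by a narrow margin, with QZ1-lo replicate 1 the highest. The log2 fold change was -0.76 (edgeR, adjusted p = 0.0415, SE 0.23) for Col4a3 and -0.90 (edgeR, adjusted p = 0.0120, SE 0.21) for Col4a4. Of the exonic bases of Col4a3, 5.65% overlap C430014B12Rik on the opposite strand. The call of Col4a4 held at 0.05 in all 16 alternative fits, but its adjusted p was not under 0.01. That of Col4a3 was lost without QZ1-hi replicate 2, 3 or 4 and without QZ1-lo replicate 1, 2 or 4, where the log2 fold change was -0.83 to -0.55 (adjusted p 0.0545 to 0.122), so that the number of basement membrane genes called lower was 1 without QZ1-hi replicate 2, 3 or 4 or QZ1-lo replicate 1 or 2.

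Col4a5 and Col4a6 form the third head-to-head pair, with 1308 bases between their starts on chromosome X. Col4a5 read 24.9, 25.4, 27.2 and 16.1 CPM in QZ1-hi and 34.0, 39.8, 37.4 and 25.9 CPM in QZ1-lo. Only the lowest QZ1-lo library reached into the QZ1-hi range. Its log2 fold change of -0.55 (edgeR, adjusted p = 0.0703, SE 0.19) missed the threshold, but passed it without QZ1-lo replicate 4 (-0.66, adjusted p = 0.0368), in DESeq2 (-0.56, adjusted p = 0.0473) and under library size only (-0.97, adjusted p = 0.0171). Without QZ1-lo replicate 4 it took the place of Col4a3 among the lower calls. Col4a6 read 3.18, 9.09, 3.70 and 3.28 CPM in QZ1-hi and 3.91, 5.21, 2.82 and 5.36 CPM in QZ1-lo, with overlap. Its log2 fold change was 0.16 (edgeR, adjusted p = 0.847, SE 0.39), and it was -0.37 without QZ1-hi replicate 2 and -0.0006 without QZ1-lo replicate 3.

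**Figure D3:**
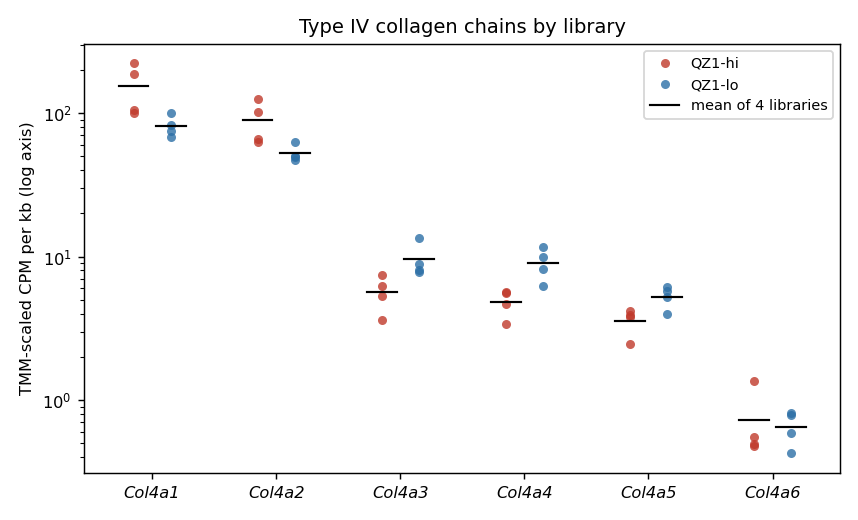
TMM-scaled CPM per kb of coding transcript (log axis) of the 6 type IV collagen genes in each library, with red points for QZ1-hi, blue points for QZ1-lo and a bar at the mean of 4 libraries. The mean of Col4a1 is 153 CPM per kb in QZ1-hi and 81.1 in QZ1-lo, and that of Col4a4 is 4.82 and 9.03.

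Col15a1 (Entrez Gene 12819, chr4:47208161-47313167) read 115, 96.0, 114 and 51.8 CPM in QZ1-hi and 23.6, 23.7, 58.9 and 16.0 CPM in QZ1-lo. Col18a1 (Entrez Gene 12822, chr10:77052178-77166548), the source of the fragment endostatin, read 158, 93.4, 67.2 and 62.9 CPM in QZ1-hi and 38.7, 32.5, 39.8 and 19.1 CPM in QZ1-lo. Col15a1 overlapped through QZ1-hi replicate 4 and QZ1-lo replicate 3, and Col18a1 did not overlap. The log2 fold changes were 1.62 (edgeR, adjusted p = 0.0118, SE 0.38) and 1.55 (edgeR, adjusted p = 0.00501, SE 0.31). Both calls held at 0.05 in all 16 alternative fits, and that of Col15a1 was not under 0.01.

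FACIT collagens were represented by 4 tested genes, of which 2 rose and 0 fell in edgeR, against 9.88% and 8.21% of all genes tested. Lower calls were also 0 at an unadjusted p under 0.05, in DESeq2 and in limma. Col14a1 (Entrez Gene 12818, chr15:55307750-55520803), which binds the surface of type I fibrils, rose with the fibrillar chains. It read 64.7, 113, 234 and 82.9 CPM in QZ1-hi and 8.74, 9.19, 15.2 and 1.68 CPM in QZ1-lo. The populations were apart, with replicate 3 the highest of each, and the log2 fold change was 3.82 (edgeR, adjusted p = 0.00113, SE 0.58), a 14.2-fold difference. Col16a1 (Entrez Gene 107581, chr4:130047840-130099283) read 21.8, 34.4, 22.4 and 12.8 CPM in QZ1-hi and 3.76, 6.51, 8.32 and 2.62 CPM in QZ1-lo. It did not overlap either, with a log2 fold change of 2.11 (edgeR, adjusted p = 0.00283, SE 0.38), and both calls held at 0.05 in all 16 alternative fits.

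Col12a1, another FACIT of type I fibrils, was not called. It read 48.3, 37.4, 39.1 and 22.7 CPM in QZ1-hi and 58.9, 32.5, 33.2 and 46.8 CPM in QZ1-lo, with overlapping ranges. Its log2 fold change was -0.22 (edgeR, adjusted p = 0.629, SE 0.24), against 3.82 for Col14a1. Col20a1 ranged from 0.890 to 4.16 CPM in QZ1-hi and from 1.34 to 4.54 CPM in QZ1-lo (log2 fold change -0.05, SE 0.56, adjusted p = 0.967, edgeR), and without QZ1-hi replicate 1 or 2 or QZ1-lo replicate 4 its log2 fold change was 0.04 to 0.44. Col9a1, Col9a2, Col9a3, Col19a1 and Col22a1 had 3 to 51 counts over the 8 libraries and were not tested.

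Among the other collagens, 5 of 10 tested genes rose and 1 fell, against 9.88% and 8.21% of all genes tested. The median log2 fold change of the 10 was 1.73. The type VI genes, whose chains form beaded microfilaments around cells, included 4 of the 5 that rose. Col6a1 (Entrez Gene 12833) read 93.2, 121, 151 and 92.6 CPM in QZ1-hi and 48.1, 41.3, 52.3 and 52.2 CPM in QZ1-lo. Col6a2 (Entrez Gene 12834) read 96.5, 116, 176 and 76.3 CPM in QZ1-hi and 30.6, 25.9, 39.1 and 24.3 CPM in QZ1-lo. Col6a3 (Entrez Gene 12835) read 133, 114, 124 and 70.6 CPM in QZ1-hi and 23.6, 18.0, 31.3 and 7.57 CPM in QZ1-lo. No library of QZ1-hi reached the QZ1-lo range for any of the 3 genes. The log2 fold changes were 1.24 (adjusted p = 0.000707, SE 0.17) for Col6a1, 1.95 (adjusted p = 0.000526, SE 0.25) for Col6a2 and 2.45 (adjusted p = 0.000957, SE 0.36) for Col6a3 in edgeR, and these calls held at 0.05 in all 16 alternative fits.

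Col6a6, which encodes a further type VI chain, read 0.975, 11.9, 5.15 and 4.35 CPM in QZ1-hi and 0.358, 0.692, 2.50 and 0.696 CPM in QZ1-lo. The populations overlapped through QZ1-hi replicate 1 and QZ1-lo replicate 3, and the log2 fold change was 2.39 (edgeR, adjusted p = 0.0481, SE 0.75). The call was lost without QZ1-hi replicate 2, 3 or 4 and without QZ1-lo replicate 1, 2 or 4 (1.69 to 2.55, adjusted p 0.0614 to 0.182), in limma (2.56, adjusted p = 0.115) and with robust shrinkage (2.39, adjusted p = 0.0601). Of its exonic stretches of 50 bases, 3.54% also occur in another gene, and 3.42% of those of Col6a5. Col6a5 ranged from 1.04 to 5.43 CPM in QZ1-hi and from 0.209 to 1.87 CPM in QZ1-lo (log2 fold change 1.50, SE 0.77, adjusted p = 0.228, edgeR), and Col6a4, with 20 counts over the 8 libraries, was not tested.

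The type VIII genes moved in opposite directions. Type VIII collagen forms a network in vessel walls and in the basement membrane of the cornea, and its chains can assemble with or without each other. Col8a1 (Entrez Gene 12837, chr16:57624258-57754737, minus strand) read 2.84, 1.28, 11.2 and 6.14 CPM in QZ1-hi and 0.0894, 0.366, 1.66 and 0.286 CPM in QZ1-lo. Col8a2 (Entrez Gene 329941, chr4:126286793-126314330, plus strand) read 3.01, 7.41, 6.59 and 4.29 CPM in QZ1-hi and 12.7, 18.3, 22.5 and 16.0 CPM in QZ1-lo. Col8a1 overlapped through QZ1-hi replicate 2 and QZ1-lo replicate 3, whereas every QZ1-hi library was below every QZ1-lo library for Col8a2. The log2 fold changes were 3.15 (edgeR, adjusted p = 0.0268, SE 0.86) for Col8a1 and -1.71 (edgeR, adjusted p = 0.00219, SE 0.29) for Col8a2. The call of Col8a2 held at 0.05 in all 16 alternative fits. That of Col8a1 was lost without QZ1-hi replicate 3 and without QZ1-lo replicate 1, 2 or 4 (2.47 to 2.98, adjusted p 0.0537 to 0.0979) and in limma (3.65, adjusted p = 0.0561), and with QZ1-hi replicate 3 or QZ1-lo replicate 2 or 4 left out 3 of the other collagens were called higher.

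The upstream sequences of both genes are shown because their RNA changed in opposite directions. They run up to the RefSeq start in GRCm38.p6, at chr16:57754738-57754987 on the minus strand for Col8a1 and chr4:126286544-126286792 on the plus strand for Col8a2, with the same letters in capitals.
Col8a1: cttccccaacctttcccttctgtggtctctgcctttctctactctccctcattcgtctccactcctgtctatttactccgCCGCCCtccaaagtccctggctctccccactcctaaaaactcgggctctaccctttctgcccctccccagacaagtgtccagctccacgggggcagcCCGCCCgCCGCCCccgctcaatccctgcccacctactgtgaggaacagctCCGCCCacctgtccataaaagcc
Col8a2: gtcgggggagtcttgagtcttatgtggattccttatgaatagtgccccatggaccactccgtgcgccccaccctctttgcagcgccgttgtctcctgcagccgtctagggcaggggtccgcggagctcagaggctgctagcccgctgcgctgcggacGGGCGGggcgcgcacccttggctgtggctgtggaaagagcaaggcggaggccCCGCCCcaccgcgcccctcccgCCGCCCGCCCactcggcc
Each stretch held 4 GC boxes and neither a TATA nor a CCAAT box as spelled above. In Col8a1 the GC boxes begin 170, 73, 66 and 23 bases before the start, and in Col8a2 they begin 92, 40, 18 and 14 bases before the end of the stretch, the last 2 of them overlapping.

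Col7a1, the chain of the anchoring fibrils that tie epithelial basement membrane to the tissue below, was not called. It read 9.28, 3.61, 4.39 and 10.8 CPM in QZ1-hi and 18.0, 10.8, 10.5 and 20.6 CPM in QZ1-lo. QZ1-hi replicate 4 lay within the QZ1-lo range. Its log2 fold change of -1.09 (edgeR, adjusted p = 0.0639, SE 0.37) passed the threshold without QZ1-hi replicate 4 (-1.36, adjusted p = 0.0360), in DESeq2 (-1.11, adjusted p = 0.0187), in limma (-1.29, adjusted p = 0.0274), under library size only (-1.58, adjusted p = 0.00321) and with no filter (-1.10, adjusted p = 0.0487), which made 2 of the other collagens lower. Col10a1, a collagen of hypertrophic cartilage, ranged from 0.296 to 2.54 CPM in QZ1-hi and from 0.0407 to 0.941 CPM in QZ1-lo (log2 fold change 1.44, SE 0.88, adjusted p = 0.326, edgeR). Col28a1 ranged from 0.752 to 2.46 CPM and from 0 to 1.28 CPM (log2 fold change 1.98, SE 1.02, adjusted p = 0.233, edgeR), and without QZ1-lo replicate 1 it was called, at 3.87 (adjusted p = 0.0334). Col26a1 had 59 counts over the 8 libraries and was not tested.

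Of the transmembrane collagens, 3 were tested, and 0 were called in either direction (edgeR, also 0 at an unadjusted p under 0.05, in DESeq2 and in limma). Over all genes tested, 9.88% were called higher and 8.21% lower. Col23a1 read 7.29, 11.6, 5.96 and 4.53 CPM in QZ1-hi and 1.58, 7.24, 4.05 and 6.79 CPM in QZ1-lo, with overlap and a log2 fold change of 0.59 (edgeR, adjusted p = 0.441, SE 0.45). Col13a1 ranged from 0.593 to 1.10 CPM in QZ1-hi and from 0 to 0.832 CPM in QZ1-lo (log2 fold change 1.58, SE 1.06, adjusted p = 0.375, edgeR). Col17a1, the hemidesmosome collagen of basal epithelium, was below the QZ1-lo libraries in every QZ1-hi library, but at 0 to 0.890 CPM against 0.900 to 1.05 CPM, and it was not called (log2 fold change -0.94, SE 0.85, adjusted p = 0.533, edgeR). Col25a1 had 50 counts, 41 of them in QZ1-hi, and was not tested.

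**Figure D4:**
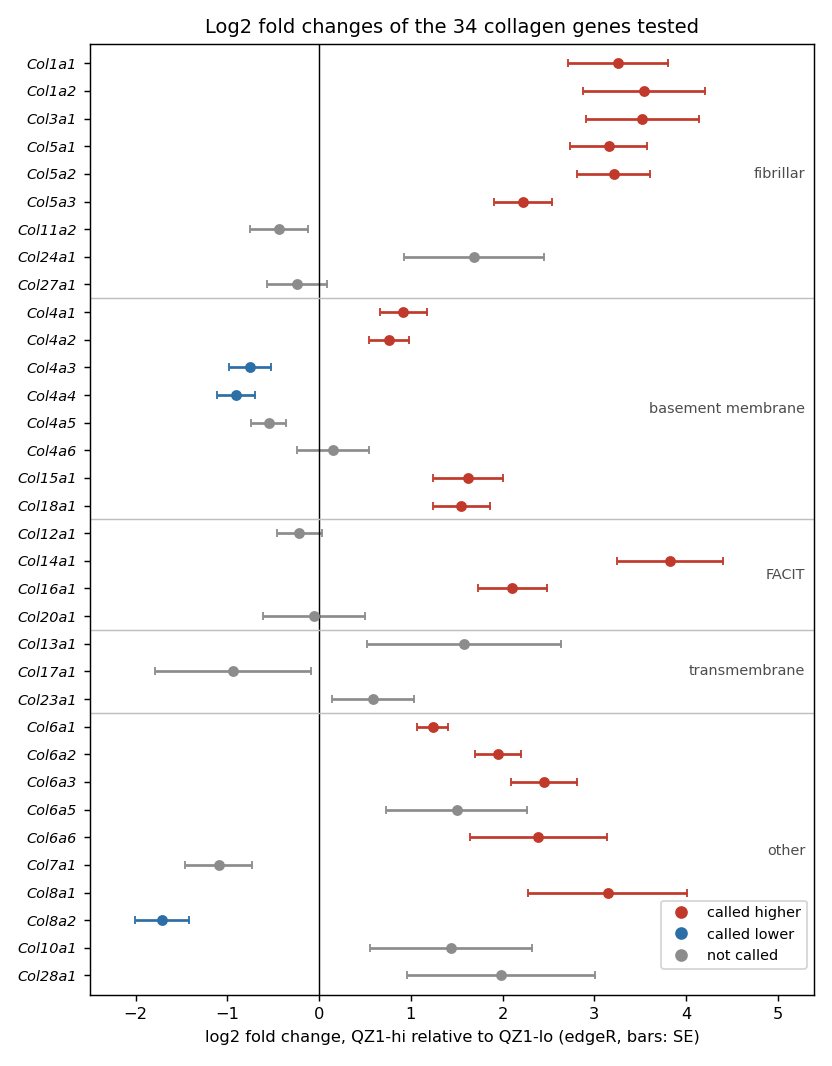
Log2 fold change of QZ1-hi relative to QZ1-lo for the 34 collagen genes tested, by class, with bars for the SE from edgeR; red marks the 17 called higher, blue the 3 called lower and gray the 14 not called. The points run from -1.71 for Col8a2 to 3.82 for Col14a1.

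Ordered by level per length, the collagens of QZ1-hi were led by Col3a1 (mean 160.3 CPM per kb), Col4a1 (153), Col1a1 (92.8), Col4a2 (89.0), Col1a2 (65.5) and Col6a1 (27.9). Those of QZ1-lo were led by Col4a1 (81.1 CPM per kb), Col4a2 (52.5), Col3a1 (13.9), Col6a1 (11.8), Col1a1 (9.68), Col4a3 (9.55) and Col4a4 (9.03). Col4a3 and Col4a4 were thus in places 6 and 7 of QZ1-lo and in places 14 and 15 of QZ1-hi, while Col14a1 was in place 8 of QZ1-hi and place 19 of QZ1-lo. Neighbors in these orders were not tested against each other, and the ranges of Col3a1 and Col4a1 overlapped in QZ1-hi.

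Chains of the same or of alternative molecules were compared within each library as the log2 ratio of their CPM after adding 0.5 CPM. In 10 pairs, the difference between the group means was tested by a two-sided exact permutation test over 70 assignments, whose smallest p is 0.0286. In 5 pairs the populations did not overlap and the exact p was 0.0286, but with adjustment over the 10 pairs it was 0.0571, so that 0 pairs passed. Log2 Col4a3 to Col4a1 was -4.52, -3.70, -5.29 and -3.84 in QZ1-hi and -2.52, -2.69, -3.02 and -2.68 in QZ1-lo, a difference of -1.61. Log2 Col8a1 to Col8a2 was -0.07, -2.15, 0.72 and 0.47 in QZ1-hi and -4.49, -4.44, -3.41 and -4.39 in QZ1-lo, a difference of 3.92. Log2 Col6a3 to Col6a1 was 0.51, -0.08, -0.29 and -0.39 in QZ1-hi and -1.01, -1.17, -0.73 and -2.71 in QZ1-lo, a difference of 1.34. The remaining such pairs were Col6a1 to Col6a2 (-0.68) and Col1a1 to Col1a2 (-0.47). In the other pairs the populations overlapped, with differences of -0.08 for Col5a1 to Col5a2 (exact p = 0.514), 0.14 for Col4a1 to Col4a2 (exact p = 0.114) and 0.13 for Col4a3 to Col4a4 (exact p = 0.429), two-sided. Col4a5 to Col4a6 differed by -0.60 (exact p = 0.143) and Col1a1 to Col3a1 by -0.37 (exact p = 0.0571).

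Procollagen chains are hydroxylated, glycosylated and folded in the endoplasmic reticulum and trimmed outside the cell, and 31 genes of these steps were examined. Of the 30 tested, 14 rose and 0 fell in edgeR, against 9.88% and 8.21% of all genes tested, with a median log2 fold change of 0.92. At an unadjusted p under 0.05, 19 were higher and 1 lower, and lower calls numbered 1 in DESeq2 and 0 in limma. Of the procollagen N-proteinases, Adamts2 rose, at a mean of 42.3 CPM (SD 19.1, n = 4) in QZ1-hi against a QZ1-lo mean of 3.67 CPM (SD 1.47, n = 4), or 3.53 on the log2 scale (edgeR, adjusted p = 0.000278, SE 0.37), and Adamts3 rose by 3.07 on that scale, while Adamts14 was not called (0.73, adjusted p = 0.654, edgeR). The enhancers of C-terminal trimming Pcolce2 and Pcolce rose by 3.74 and 1.51 on the log2 scale, and the C-proteinase Tll1 by 2.92. The related C-proteinase Bmp1 was not called (0.31, adjusted p = 0.293, edgeR), and Tll2 was too low to test. The lysyl hydroxylase Plod2 rose by 2.44, and the folding proteins Fkbp14 and Fkbp10 by 2.44 and 2.23. P3h3, a member of the prolyl 3-hydroxylase family, rose by 2.42, and Colgalt2, a collagen galactosyltransferase, by 3.13. Serpinh1, the collagen chaperone HSP47, read 208, 228, 214 and 119.96 CPM in QZ1-hi and 81.6, 80.1, 106 and 52.8 CPM in QZ1-lo. The populations did not overlap, with a log2 fold change of 1.27 (edgeR, adjusted p = 0.00341, SE 0.23). The prolyl 4-hydroxylase genes were not called, with log2 fold changes of 0.40 for P4ha1 (adjusted p = 0.159), -0.22 for P4ha2 (adjusted p = 0.430), 1.30 for P4ha3 (adjusted p = 0.302) and 0.19 for P4hb (adjusted p = 0.419) in edgeR.

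Some calls of the biosynthesis genes rested on single libraries or on the scaling. Colgalt2 was not called without QZ1-hi replicate 1 or 3 or QZ1-lo replicate 1 or 2 (2.79 to 3.25, adjusted p 0.0578 to 0.0768), nor with robust shrinkage (3.13, adjusted p = 0.0502), and Fkbp14 not without QZ1-lo replicate 1 (2.25, adjusted p = 0.0517). Plod1 (0.77, adjusted p = 0.0237, edgeR) was not called without QZ1-hi replicate 1 or 3 or QZ1-lo replicate 1, 2 or 3 (0.67 to 0.79, adjusted p 0.0511 to 0.0765). Under library size only, Serpinh1 (0.83, adjusted p = 0.0543), Plod1 (0.33, adjusted p = 0.427), Crtap (0.62, adjusted p = 0.136) and Sparc (0.49, adjusted p = 0.221) were not called, and P4ha1, P4hb and Bmp1 turned to -0.08, -0.25 and -0.13. Without QZ1-hi replicate 4, Bmp1 was called (0.48, adjusted p = 0.0475). The number of lower calls was 1 without QZ1-hi replicate 3 or QZ1-lo replicate 2.

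Genes for collagen receptors moved in both directions. Of 12 listed, 11 were tested, and 3 rose and 3 fell, against 9.88% and 8.21% of all genes tested. Itga1, the collagen-binding integrin chain of mesenchymal and endothelial cells, read 106, 73.3, 142 and 79.3 CPM in QZ1-hi and 13.0, 12.1, 23.6 and 14.0 CPM in QZ1-lo. Ddr2, a receptor kinase for fibrillar collagen, read 56.5, 83.6, 109 and 55.2 CPM in QZ1-hi and 13.2, 12.7, 23.3 and 6.75 CPM in QZ1-lo. Neither overlapped, with log2 fold changes of 2.67 (adjusted p = 0.000256, SE 0.27) and 2.44 (adjusted p = 0.000803, SE 0.34) in edgeR. Mrc2, an uptake receptor for collagen, rose by 0.88 (edgeR, adjusted p = 0.0173, SE 0.22). The genes that fell included Ddr1, the epithelial counterpart of Ddr2, and Itga2, a collagen-binding integrin chain of epithelium and platelets. Ddr1 read 41.4, 54.5, 24.3 and 28.1 CPM in QZ1-hi and 66.4, 82.9, 93.3 and 60.5 CPM in QZ1-lo. Itga2 read 26.2, 21.6, 25.0 and 11.7 CPM in QZ1-hi and 46.1, 38.0, 45.6 and 36.1 CPM in QZ1-lo. Both were below QZ1-lo in every QZ1-hi library, as were the summed alveolar type 1, airway and ciliated markers. The alveolar type 2 sums overlapped, with 2 of 6 markers called higher. The part of these markers was not tested. Ddr1 and Itga2 had log2 fold changes of -1.03 (adjusted p = 0.0125, SE 0.24) and -0.97 (adjusted p = 0.0109, SE 0.22) in edgeR.

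Adgrg6, an adhesion G protein-coupled receptor that binds type IV collagen, was the remaining receptor gene that fell, with a log2 fold change of -0.83 (edgeR, adjusted p = 0.0192, SE 0.21). Itgb1, the shared partner of the integrin chains above, was not called (0.14, SE 0.11, adjusted p = 0.480, edgeR) and read -0.32 under library size only. Mrc2 was not called without QZ1-hi replicate 3 (0.80, adjusted p = 0.0541) or QZ1-lo replicate 2 (0.79, adjusted p = 0.0542), nor under library size only (0.43, adjusted p = 0.322). Adgrg6 was not called without QZ1-lo replicate 1 (-0.70, adjusted p = 0.0613) or replicate 2 (-0.78, adjusted p = 0.0545). The calls of Itga1, Ddr2, Ddr1 and Itga2 held at 0.05 in all 16 alternative fits, and those of Ddr1 and Itga2 were not under 0.01.

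**Figure D5:**
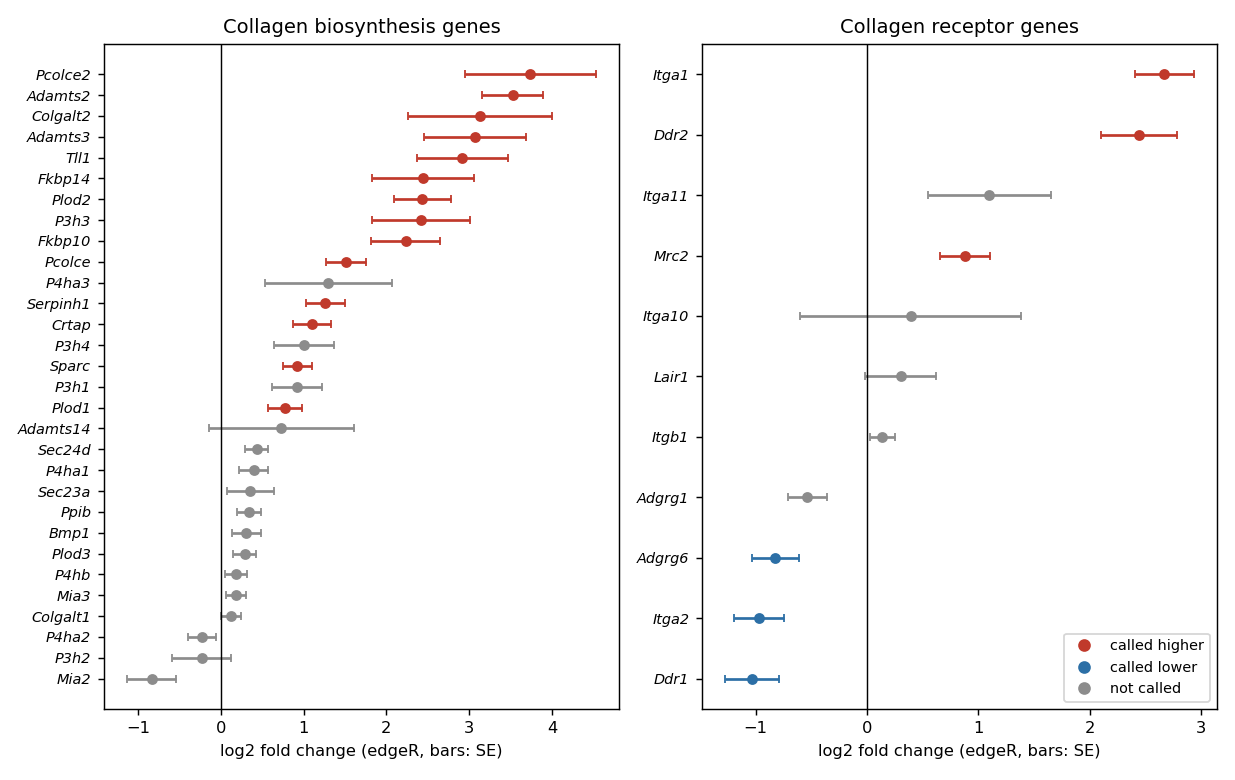
Log2 fold change of QZ1-hi relative to QZ1-lo for 30 collagen biosynthesis genes (left) and 11 collagen receptor genes (right), with bars for the SE from edgeR and colors for called higher, called lower and not called. On the left 14 points are called higher, up to 3.74 for Pcolce2, and on the right 3 are called higher and 3 lower, from -1.03 for Ddr1 to 2.67 for Itga1.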

How the data were processed

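RNA of QZ1-hi and QZ1-lo cells from Eml4-Alk lungs was sequenced in 8 libraries, 4 per population, after SMARTer stranded total RNA preparation on a NextSeq500. The deposited values are whole-number counts of reads on genes, which the authors obtained with Rsubread and did not normalize, for 27179 Entrez Gene identifiers. The submitters' processing notes name mm10 and DESeq2, and the aligner, the annotation and the strand setting of the counting are not given in the sources used here. Reads from a gene and an antisense partner may therefore be mixed. Symbols were found for 25293 identifiers, 25275 through RefSeq and 18 through GENCODE M21, and 1886 had none. Total counts were 18380918 to 26847938 per library.

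The tool was edgeR 4.0.16 under R 4.3.3. Libraries were scaled by TMM (factors 0.660 to 1.35), genes were kept by filterByExpr (minimum count 10, minimum total 15), and the 15583 genes kept were compared by the quasi-likelihood test, adjusted by the Benjamini-Hochberg method at 0.05. The common dispersion was 0.113, and each SE was obtained from the fold change and the root of its F statistic. Log2 ratios of chains used a pseudocount of 0.5 CPM and exact permutation tests in Python 3.11.15. CPM per kb divides by the joined exon length of all protein-coding transcripts of the gene in the basic set of GENCODE M21, with overlapping exons counted once.

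The collagen genes, the gene lists and the marker lists were chosen with earlier results of these data known. Any collagen could be named. Of the biosynthesis and receptor lists, up to 8 called genes per direction with the largest log2 fold change could be named, plus genes whose role is tied to a chain described. Alternatives were the Wald test of DESeq2 1.42.0, voom with quality weights in limma 3.58.1, edgeR with the size factors of DESeq2 or with library size only, no filtering of low counts, a minimum of 10 counts in each library, robust shrinkage, removal of mitochondrial and ribosomal RNA genes, an adjusted p under 0.01, a pseudocount of 2 CPM for ratios, Col15a1 and Col18a1 counted as other collagens, and each library left out in turn. Upstream sequences are from RefSeq (GRCm38.p6).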

Additional observations from a re-analysis of the deposited data

Results flagged for a closer look

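In 68 groups of 4 libraries, 2 for each of the 34 collagen genes tested, 3 libraries stood apart from the other libraries of their population by Dixon's criterion, which chance meets in about 1 of 20 groups. Col4a6 read 9.09 CPM in QZ1-hi replicate 2 and 3.18 to 3.70 CPM in the other QZ1-hi libraries. Col6a6 read 2.50 CPM in QZ1-lo replicate 3 and 0.358 to 0.696 CPM in the remaining libraries. Col28a1 read 1.28 CPM in QZ1-lo replicate 1 and 0 to 0.164 CPM in the rest of its population.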

How the results depend on the processing

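Of the 20 collagen calls, 15 held at an adjusted p of 0.05 in every alternative fit that tested the gene and 5 were lost in at least 1, with 0 changes of sign, and 3 genes without a call gained it in at least 1. At an adjusted p under 0.01, 13 of the 20 remained, without Col4a1, Col4a2, Col4a3, Col4a4, Col15a1, Col6a6 and Col8a1. For the log2 ratios, 100 of 100 alternative values kept their direction, and nothing is read from their p values. Under library size only, 882 of all genes were higher, 2509 lower, 5 collagens lower, 2 basement membrane genes higher, 2 other collagens lower and 1 biosynthesis gene lower. At 0.01 there were also 902 and 665 of all genes, 1 collagen lower, 1 basement membrane gene higher and 0 lower, 3 other collagens higher and 0 receptors lower. DESeq2 gave 5 collagens lower, 2 other collagens lower and 1 biosynthesis gene lower, limma 3 other collagens higher and 2 lower, and no filter 2 other collagens lower. With Col15a1 and Col18a1 counted as other, 2 basement membrane genes were higher. Leaving out 1 library gave 2 to 4 basement membrane genes higher and 1 to 2 lower, 3 to 5 other collagens higher and 1 to 2 lower, and 0 to 1 biosynthesis genes lower. Uncalled genes that changed sign were Col4a6 (-0.33 under library size only, -0.37 and -0.0006 without the libraries named above, in a range of -0.37 to 0.33 with each left out), Col20a1 (0.04, 0.22 and 0.44, in a range of -0.53 to 0.44), and, under library size only, P4ha1 (-0.077), P4hb (-0.25), Bmp1 (-0.13) and Itgb1 (-0.32). The cause of these changes was not tested. No paired analysis was possible because neither labels nor methods link libraries by mouse and the replicate numbers follow accession order. Genes under about 1 CPM rest on few counts, and 10 collagens were too low to test.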
